A study of Rattus norvegicus with 21 samples.

Results

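Expression of 6 immediate early and stress response genes (Fos, Jun, Junb, Egr1, Dusp1 and Atf3) was followed in sorted spinal cord microglia and in total spinal cord of rats. The genes were chosen by name through their rat Ensembl IDs, with no threshold on their values although earlier results of these data were known, and make up 6 of the 32883 gene IDs counted. The IDs were ENSRNOG00000008015 for Fos, ENSRNOG00000026293 for Jun, ENSRNOG00000042838 for Junb, ENSRNOG00000019422 for Egr1, ENSRNOG00000003977 for Dusp1 and ENSRNOG00000003745 for Atf3. All animals were wild type LEW/Crl rats of 6 to 8 weeks that received 7 days of intratracheal PBS (the buffer control), vancomycin (VANCO) or neomycin (NEO), in a study of how antibiotics act on the central nervous system. There were 12 libraries of CD45low CD11b+ microglia, 4 per treatment with the replicate numbers 1, 2, 3 and 5, and 9 libraries of total cord, 3 per treatment with the numbers 1, 2 and 3. Cords were homogenised and depleted of myelin on a Percoll gradient before the pellet was lysed or the microglia were stained and sorted. No label says whether a library holds 1 animal or a pool, nor what a replicate number stands for, so p-values measure only the spread between these samples, which may be technical.

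Immediate early genes are transcribed within minutes of a stimulus from factors already present in the cell, and their transcripts are short-lived. Fos, Jun and Junb encode subunits of the AP-1 transcription factor, Egr1 encodes a zinc finger transcription factor, and Atf3 encodes a stress-induced transcription factor of the ATF/CREB family. Dusp1 encodes a phosphatase that inactivates MAP kinases, enzymes that help drive the induction of the others, and is itself induced by stress and by glucocorticoids. In microglia these genes are known to respond both to activation in the tissue and to the handling that cell isolation requires.

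The stretch before the start site is shown for the 3 of the 6 genes found in the RefSeq promoter table (build GRCr8), since these genes varied together in microglia and immediate early promoters are known for short response elements. Capitals mark matches, on either strand, to the cAMP response element (CRE, TGACGTCA), to its core (TGACG, also counted inside a full CRE) and to the CArG box bound by serum response factor. Each is the plus strand, 250 bases upstream of the start site, at chr19:40080876-40081125 for Junb, chr18:26736828-26737077 for Egr1 and chr10:17184603-17184852 for Dusp1.
Junb: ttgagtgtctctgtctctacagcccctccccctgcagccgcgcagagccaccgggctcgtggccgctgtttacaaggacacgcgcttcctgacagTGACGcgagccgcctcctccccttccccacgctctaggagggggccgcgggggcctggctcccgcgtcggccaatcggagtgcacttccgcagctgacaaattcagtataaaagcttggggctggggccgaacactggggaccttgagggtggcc
Egr1: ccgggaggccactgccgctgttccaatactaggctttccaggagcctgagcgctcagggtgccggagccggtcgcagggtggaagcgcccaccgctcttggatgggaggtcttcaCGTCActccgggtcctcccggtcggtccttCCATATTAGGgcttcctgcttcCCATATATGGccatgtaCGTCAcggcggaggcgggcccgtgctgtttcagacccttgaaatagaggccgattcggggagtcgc
Dusp1: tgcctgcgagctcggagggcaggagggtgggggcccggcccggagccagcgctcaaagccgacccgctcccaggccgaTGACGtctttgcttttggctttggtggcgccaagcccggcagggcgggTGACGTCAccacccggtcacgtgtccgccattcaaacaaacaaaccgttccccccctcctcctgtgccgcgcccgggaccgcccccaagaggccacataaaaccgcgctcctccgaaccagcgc
The Dusp1 stretch held a full CRE at -124 from the start site and a separate core at -172. The Egr1 stretch held 2 CArG boxes, at -105 and -83, and cores at -135 and -66, and the Junb stretch held 1 core, at -155. The AP-1 site (TRE, TGANTCA) matched in none of the 3. Over all 33469 promoter windows of 300 bases in the table (250 before and 50 after the start site), 1.83% held a full CRE, 21.2% a core, 7.33% a TRE and 1.64% a CArG box. These are matches of letters, and no binding was measured.

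Microglia libraries held 9020480 to 22435887 counts and cord libraries 16769410 to 25114844. The 6 genes together took 0.301% to 3.22% of all counts in microglia (median 1.02%, n = 12) and 0.00819% to 0.0141% in cord (median 0.0108%, n = 9). The files do not pair IDs with gene names and 0 of the 32883 IDs occurred in the gene table used here, so cell type markers, other AP-1, MAP kinase and stress response genes were not analysed here. The purity of the sort was described with 1646 cord-enriched IDs. These were called in the PBS samples of this series with a level in cord 64-fold that in microglia or more. They took 28.7% to 33.2% of the counts in cord. In microglia they took 0.303% to 2.57% in the 3 libraries numbered 2 and 0.0367% to 0.112% in the other 9. As the IDs were chosen from these libraries, a high share in cord and a low share in microglia are partly set by the choice. They are no independent measure of purity. Levels are given as CPM, a gene's counts relative to the library total, with TMM scaling over all 21 libraries. CPM does not correct for gene length, so levels are compared between samples and not between genes.

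All 6 genes were higher in sorted microglia than in total cord in each treatment. In PBS samples Fos was 343-fold higher, Egr1 176-fold, Dusp1 181-fold, Junb 129-fold and Jun 99.5-fold, while Atf3, which had the widest error, was 20.1-fold higher. With edgeR's quasi-likelihood test and Benjamini-Hochberg adjustment, 6 of 6 were called higher in microglia after PBS, where 45% of the 15546 genes tested were called higher. The count was also 6 of 6 after NEO (44% of all genes) and after VANCO (45%). Across treatments, every one of the 12 microglia libraries lay above every cord library for each gene, as did 35.8% of all genes tested. For Atf3 the margin was narrow, with 2.18 CPM in the lowest microglia library and 2.12 CPM in the highest cord library. This order was counted with TMM scaling only. The median log2 fold change of the 6 was 7.24 in PBS, 6.41 in NEO and 6.99 in VANCO samples, beside 0.21, 0.17 and 0.21 over all genes. The tissues differ so widely that the scaling sets the split of all genes: with TMM factors 53.8% of genes had a positive fold change in PBS samples and with RLE factors 43.8%, while the median of the 6 members was 6.74 with RLE factors and all 6 stayed positive. In whole tissue, fewer cells of a type and less RNA per cell cannot be told apart. The microglia were also stained and sorted, whereas the cord pellet was lysed without these steps. Cell type and handling therefore cannot be told apart in any of these folds.

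Among the AP-1 genes, Fos reached 5372, 881, 1609 and 1398 CPM in the PBS microglia libraries numbered 1, 2, 3 and 5, against 5.48, 4.05 and 10.7 CPM in the PBS cord libraries numbered 1, 2 and 3. The lowest microglia library was thus far above the highest cord library, although the microglia libraries differed widely among themselves. The log2 fold change was 8.42 (SE 1.15, adjusted p = 3.40e-06 by edgeR), and 1.30% of genes tested had a larger absolute fold change. Jun stood at 11996, 2322, 3799 and 4439 CPM in PBS microglia and at 46.6, 52.7 and 70.7 CPM in PBS cord. Its log2 fold change was 6.64 (SE 0.86, adjusted p = 1.70e-06 by edgeR). Junb stood at 2683, 858, 878 and 1447 CPM in PBS microglia and at 8.98, 8.85 and 16.2 CPM in PBS cord, a log2 fold change of 7.01 (SE 0.77, adjusted p = 2.64e-07 by edgeR). For all 3 genes the PBS library numbered 1 was the highest in microglia and the library numbered 3 the highest in cord.

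Egr1 stood at 3303, 796, 1149 and 1430 CPM in PBS microglia and at 9.03, 8.33 and 11.1 CPM in PBS cord, a log2 fold change of 7.46 (SE 0.85, adjusted p = 3.73e-07 by edgeR). Dusp1 stood at 6947, 986, 2276 and 2066 CPM in PBS microglia and at 16.5, 18.5 and 16.0 CPM in PBS cord, a log2 fold change of 7.50 (SE 1.01, adjusted p = 2.84e-06 by edgeR). For Dusp1 the distance between the tissues was smallest after NEO (64.3-fold, log2 fold change 6.01, SE 0.94, edgeR adjusted p = 1.55e-05), where its cord level was highest. After VANCO it was 141-fold. For 4 of the other genes the fold ranged over the treatments from 274 to 343 (Fos), 79.4 to 99.5 (Jun), 90.7 to 129 (Junb) and 114 to 179 (Egr1).

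For Atf3 a single library per treatment, number 1, carried most of the microglial level. In PBS microglia it stood at 104, 5.55, 6.08 and 3.40 CPM, and in PBS cord at 1.30, 1.29 and 1.81 CPM, which rest on 22 to 28 counts. The log2 fold change was 4.33 (SE 1.74, adjusted p = 0.0291 by edgeR) in PBS, 3.91 (SE 1.68, adjusted p = 0.0399) in NEO and 4.16 (SE 1.73, adjusted p = 0.0342) in VANCO samples. Without microglia library 1 of the treatment tested it fell to 1.76, 0.97 and 1.66, and the edgeR adjusted p became 0.273, 0.520 and 0.305. Leaving out all libraries numbered 1 from the whole fit instead gave 1.68, 0.94 and 1.66 with adjusted p = 0.00306, 0.0508 and 0.00338. The call was also lost with limma-voom (adjusted p from 0.262 to 0.282) and without any 1 of the 3 cord libraries of the treatment (0.0663 to 0.102). Of the 17 alternatives with an adjusted p, the Atf3 call was lost in 8 for PBS, 12 for NEO and 9 for VANCO samples. The other 5 genes were called in each of the 18 alternatives per treatment.

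**Figure D1:**
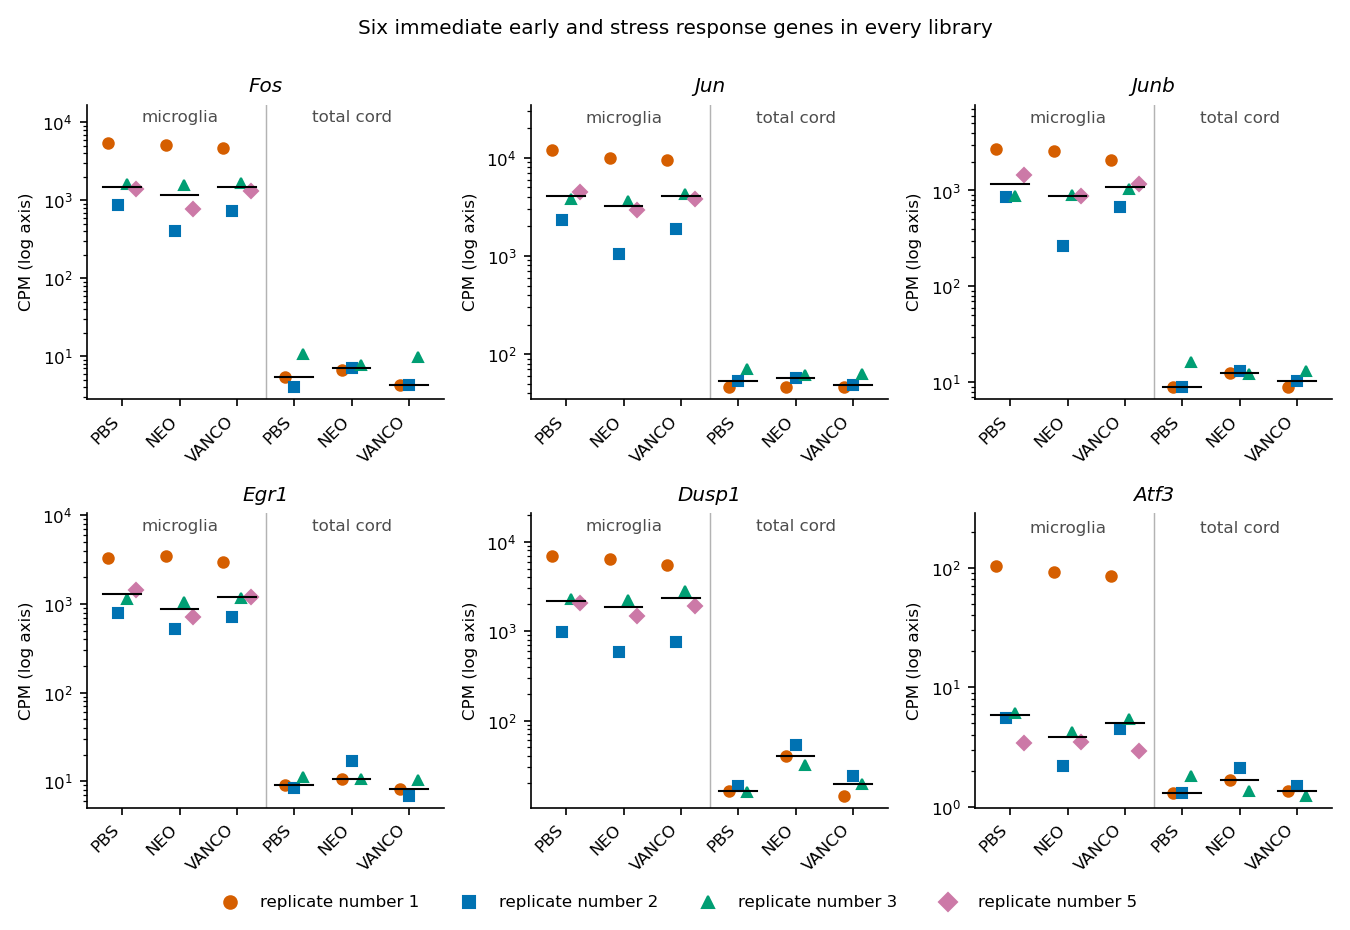
CPM (log axis) of each gene in each of the 21 libraries, by tissue and treatment. Symbols and colours mark the replicate number and horizontal lines the median of each group. The microglia points lie above all cord points for every gene, for Atf3 narrowly. The microglia libraries numbered 1 are the highest in every group. For Atf3 the remaining microglia libraries lie between 2.18 and 6.08 CPM, and the highest cord library lies at 2.12 CPM.

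The plot of CPM in every library shows that replicate number, more than treatment, ordered the microglia libraries. Levels of all 6 genes were highest in the 3 libraries numbered 1, 1 from each treatment. The lowest of these 3 lay above the highest of the other 9 libraries for each gene. The share of all genes that set number 1 apart in this way was not counted, so the separation is not shown to be particular to the 6. For Fos the lowest number 1 library had 4725 CPM and the highest other library 1684 CPM, for Junb 2058 and 1447 CPM, and for Atf3 85.0 and 6.08 CPM. The mean of the number 1 libraries was 22.3 times that of the other 9 for Atf3, 4.38 times for Fos, 3.75 times for Dusp1, 3.36 times for Jun, 3.35 times for Egr1 and 2.72 times for Junb. The test of number (edgeR F test of the number terms beside treatment) called 6 of 6 genes, where 35.8% of 12570 genes were called.

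Atf3 had the smallest p of all 12570 genes in that test (edgeR adjusted p = 3.45e-07). Its mean over the 3 treatments was 93.8 ± 9.44 CPM for number 1 (SD, n = 3), 4.07 ± 1.73 for number 2, 5.25 ± 0.949 for number 3 and 3.28 ± 0.302 for number 5. The step was therefore between number 1 and the rest, and without the libraries numbered 1 the call for Atf3 was lost (edgeR adjusted p = 0.204).

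Dusp1 was 36th by p (edgeR adjusted p = 6.66e-06). It stood at 6276 ± 763 CPM in number 1, 775 ± 200 in number 2, 2428 ± 310 in number 3 and 1817 ± 314 in number 5 (SD, n = 3 each), so that number 2 was also set apart, on the low side. Number 1 exceeded number 2 by 8.10 times. For Dusp1, Jun and, narrowly, Junb the highest number 2 library lay below the lowest library of numbers 3 and 5. The share of all genes with this order was not counted either.

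Fos was 92nd by p (edgeR adjusted p = 1.75e-05), with 5064 ± 325 CPM in number 1, 675 ± 241 in number 2, 1628 ± 49.6 in number 3 and 1161 ± 344 in number 5 (SD, n = 3 each). Jun was 100th (edgeR adjusted p = 1.97e-05), with 10476 ± 1329, 1748 ± 644, 3906 ± 378 and 3711 ± 765 CPM in the same order. Egr1 was 150th (edgeR adjusted p = 4.87e-05), with 3260 ± 273, 677 ± 137, 1122 ± 66.0 and 1117 ± 366 CPM. Junb was the least ordered by number, 815th by p (edgeR adjusted p = 0.00126), with 2440 ± 335, 601 ± 304, 935 ± 89.4 and 1157 ± 290 CPM. Without the libraries numbered 1, Fos, Jun, Egr1 and Dusp1 were still called (adjusted p = 0.00732, 0.00574, 0.0242 and 0.000913), whereas Junb was not (0.0558).

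The 6 genes took 2.65% to 3.22% of all counts in the microglia libraries numbered 1, 0.301% to 0.572% in number 2, 0.961% to 1.16% in number 3 and 0.712% to 1.14% in number 5. The counts of cord-enriched IDs moved with the number as well, at 0.0367% to 0.0850% in number 1, 0.303% to 2.57% in number 2, 0.0647% to 0.112% in number 3 and 0.0966% to 0.0995% in number 5. A further 96 IDs, chosen in the same PBS samples as 64-fold or more higher in microglia and without the 6 members, were also summed. They took 1.78% to 2.11% in number 1, 0.250% to 0.345% in number 2, 1.72% to 2.27% in number 3 and 0.640% to 0.771% in number 5. Totals overlapped, at 11198001 to 19298488 counts in number 1 and 9020480 to 15319914 in number 2. Their part in the levels of the 6 genes was not tested.

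**Figure D2:**
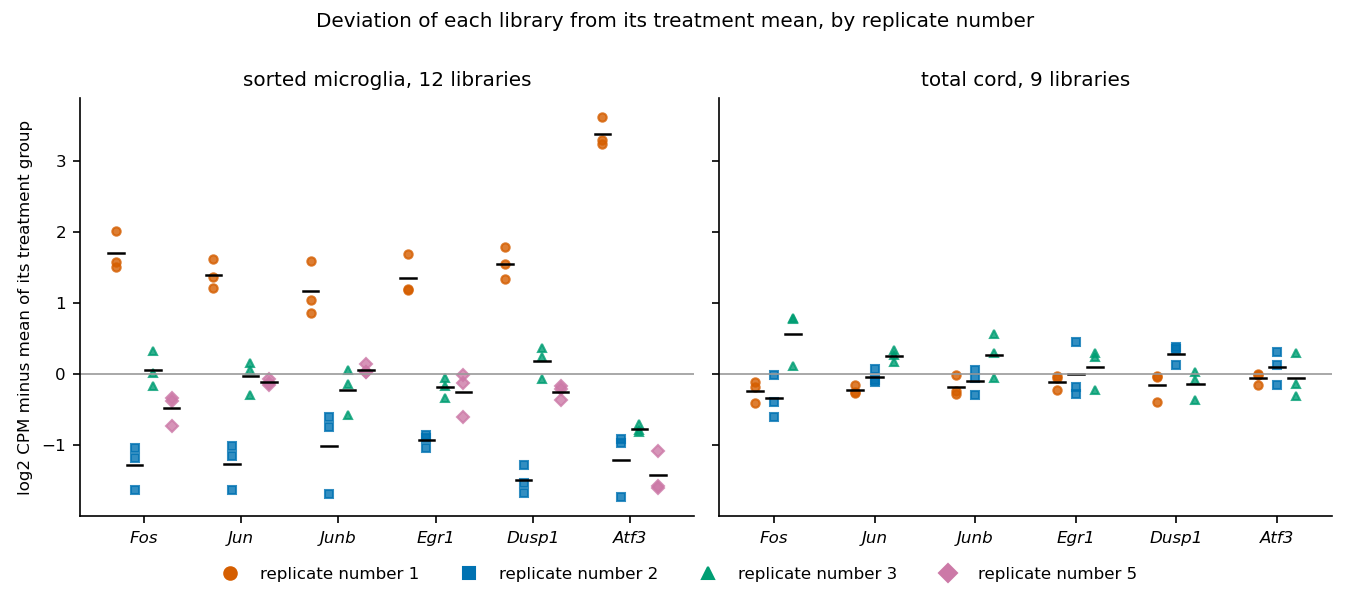
Deviation of log2 CPM of each library from the mean of its treatment group, for each gene, in microglia (left) and cord (right). Symbols mark the replicate number, short lines the mean over the 3 treatments, and both panels share the vertical axis. Number 1 lies on average 1.16 to 3.38 above the treatment mean in microglia and number 2 lies 0.93 to 1.49 below it, while no mean in cord reaches 0.57.

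Within a treatment the 6 genes were among the more variable genes in microglia, as the plot of deviations by number shows. The SD of log2 CPM within groups was 2.29 for Atf3, 1.28 for Fos, 1.27 for Dusp1, 1.10 for Jun, 0.99 for Egr1 and 0.96 for Junb, beside a median of 0.26 over all genes. Only 0.318% of genes had a larger SD than Atf3, and between 5.48% and 7.92% had a larger SD than the other 5. The number accounted for 98.8% of the variance of Atf3 within treatments, 97.9% for Dusp1, 96.7% for Jun, 96.4% for Fos, 95.1% for Egr1 and 86.8% for Junb, beside a median of 64.2% over all genes. Once number was taken out, the remaining SD was 0.22 to 0.43, beside a median of 0.18.

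In total cord the same genes spread much less. The SD within groups was 0.58 for Fos, which 3.48% of genes exceeded, and 0.25 to 0.33 for the other 5, beside a median of 0.16 over all genes. The test of number called 3 of 6 genes in cord, where 32.5% of 14677 genes were called, so the count is not far from that share. Jun was called with an edgeR adjusted p of 2.17e-05, at 46.3 ± 0.440, 52.6 ± 4.75 and 64.9 ± 5.04 CPM in numbers 1, 2 and 3 (SD, n = 3 each). Fos (adjusted p = 0.0338) was highest in number 3, at 9.48 ± 1.53 CPM, against 5.46 ± 1.18 and 5.15 ± 1.68 CPM in numbers 1 and 2. Dusp1 (adjusted p = 0.0420) was highest in number 2 in each treatment. The calls for Fos and Dusp1 were each lost when any of several libraries was left out: Fos without 6 of the 9 in turn, up to an adjusted p of 0.119, and Dusp1 without 4 of the 9, up to 0.250. Junb, Egr1 and Atf3 had edgeR adjusted p-values of 0.165, 0.838 and 0.799.

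The number that stood highest in microglia did not stand highest in cord. Number 1 was on average 0.23 below the treatment mean for Fos in cord, against 1.70 above it in microglia, and 0.15 below for Dusp1, against 1.55 above. Over all genes, deviations of same-numbered microglia and cord libraries had a median correlation of 0.0436 (27 pairs of libraries), whereas same-numbered libraries within a tissue had r of 0.24 or more.

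The 6 genes also varied together in microglia. With treatment means removed, Pearson r of log2 CPM over the 12 libraries was 0.83 to 0.99 for the 15 pairs of genes, with a median of 0.93. The closest pair was Jun and Dusp1 (r = 0.989), in which Dusp1 was the 5th closest of 12569 genes to Jun and Jun the 3rd closest to Dusp1. Fos and Egr1 had r = 0.981, and Fos and Dusp1 r = 0.980. Atf3 was the least alike, with r from 0.83 (Junb) to 0.92 (Egr1). It was the 662nd closest gene to Junb, the 532nd to Dusp1 and the 457th to Jun. The 12 libraries share 4 replicate numbers, so they are not independent points. Number accounted for a median of 64.2% of the variance within treatments over all genes. The r between any 2 genes taken at large was not computed, so high values are not shown to be particular to the 6. For each member the 2 closest genes of all were IDs without a name in the files, with r from 0.981 to 0.997, and none of them was another member.

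In cord, r over 9 libraries ran from -0.11 to 0.91, with a median of 0.52. The AP-1 genes had the highest values (Fos and Junb r = 0.909, Fos and Jun 0.83, Jun and Junb 0.82), whereas Dusp1 had r of -0.11 with Fos, -0.05 with Jun and 0.10 with Junb. Atf3 rests on 20 to 38 counts per cord library, and its r with Fos was 0.21.

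**Figure D3:**
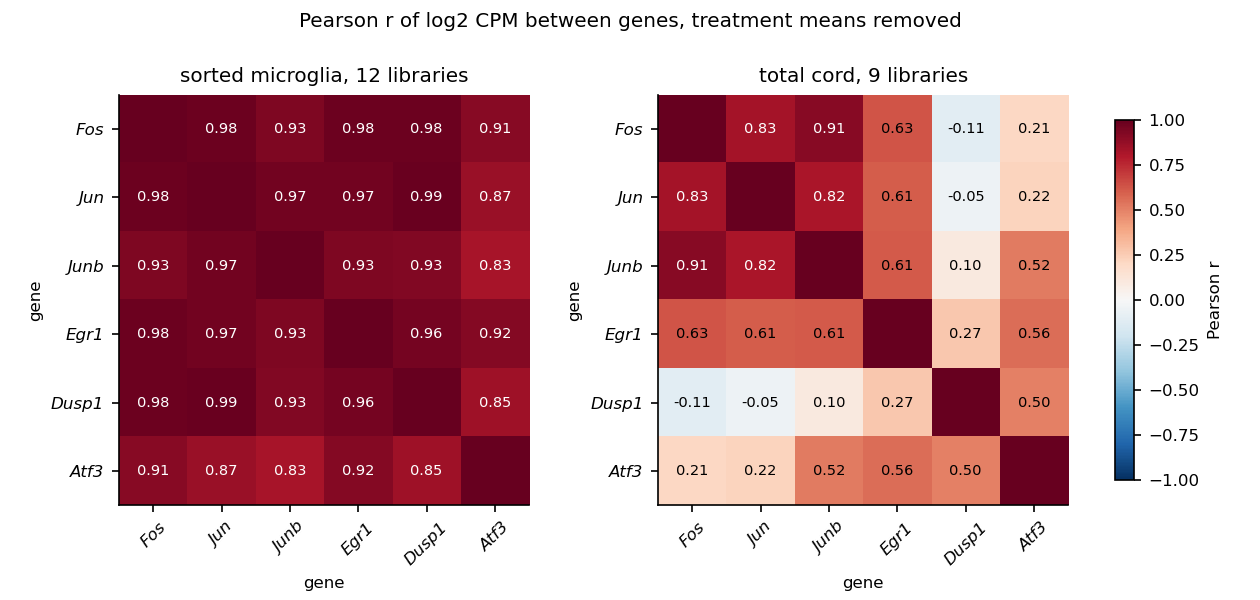
Pearson r of log2 CPM between the 6 genes with treatment means removed, over 12 microglia libraries (left) and 9 cord libraries (right), with red for positive and blue for negative r. All pairs are at 0.83 or above in microglia, while in cord the row of Dusp1 runs from -0.11 to 0.50.

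Treatment was compared next, with NEO and VANCO both set against the same PBS libraries. In cord, Dusp1 was the only member called, and it was called with the replicate number in the model or with DESeq2. It stood at 16.5, 18.5 and 16.0 CPM in PBS libraries 1, 2 and 3, at 39.9, 53.3 and 31.7 CPM in NEO libraries, and at 14.4, 24.1 and 19.3 CPM in VANCO libraries. The lowest NEO library lay above the highest PBS and the highest VANCO library, while VANCO and PBS overlapped. The group means were 17.0 ± 1.36, 41.6 ± 10.9 and 19.3 ± 4.85 CPM (SD, n = 3 each).

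The NEO library of each number was 1.99 to 2.88 times the PBS library of that number and 1.65 to 2.77 times the VANCO library, so 3 of 3 pairs were higher in both. Groups also did not overlap for 6.49% of genes between NEO and PBS and for 7.02% between NEO and VANCO. The log2 fold change of Dusp1 against PBS was 1.29 (SE 0.22, 2.44-fold), which 0.150% of 14677 genes exceeded in size, with an unadjusted p of 0.000176 and an adjusted p of 0.152 from edgeR. This model called 0 of 6 members and 0 of 14677 genes (0%), although 400 genes reached an unadjusted p under 0.05. DESeq2, with its own size factors, called 24 genes, of which Dusp1 was the one member (adjusted p = 4.70e-06). With the replicate number as a block, Dusp1 was called (log2 fold change 1.27, SE 0.14, edgeR adjusted p = 0.00351), as 0.681% of all genes were. Under the block, leaving out any 1 of the 6 libraries, or all libraries of a number, kept the call, with the log2 fold change from 1.12 to 1.43 and the edgeR adjusted p up to 0.0422.

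Against VANCO, Dusp1 was higher in NEO cord by a log2 fold change of 1.10 (SE 0.21, 2.15-fold, edgeR adjusted p = 0.333), and with the block by 1.10 (SE 0.13, adjusted p = 0.00855). The block called 0.436% of all genes, the model without it 0% (331 genes at an unadjusted p under 0.05), and DESeq2 25 genes, Dusp1 among them (adjusted p = 0.000304). The blocked call was lost without NEO library 1 (edgeR adjusted p = 0.0551), NEO library 2 (0.0584) or VANCO library 2 (0.116). VANCO against PBS gave 0.18 (SE 0.22, adjusted p = 1.00 by edgeR). That comparison called 0 of 6 members and 0 of 14677 genes (0%) without the block, with 124 genes at an unadjusted p under 0.05, and 0 genes with DESeq2. With the block, 0.00681% of genes were called and none of the members. Treatment accounted for 82.9% of the variance of log2 CPM of Dusp1 over the 9 cord libraries, beside a median of 13.0% over all genes.

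The other 5 genes did not pass the test in cord in any treatment comparison, with or without the block. Egr1 stood at 9.03, 8.33 and 11.1 CPM after PBS, at 10.6, 16.9 and 10.6 CPM after NEO and at 8.19, 6.88 and 10.3 CPM after VANCO, with NEO library 2 far above the rest. Its log2 fold change was 0.41 against PBS (SE 0.22, adjusted p = 1.00 by edgeR) and 0.58 against VANCO (SE 0.22, adjusted p = 1.00 by edgeR). The NEO and VANCO groups did not overlap, by a narrow margin (10.6 against 10.3 CPM), which also held for 7.02% of all genes without regard to margin. For Fos, Jun, Junb and Atf3 the log2 fold change of NEO against PBS lay between -0.05 and 0.21. Fos in NEO cord, at 6.63, 7.09 and 7.76 CPM, lay inside the range of the PBS libraries. The median of the 6 members was 0.18 for NEO against PBS and -0.11 for VANCO against PBS, beside 0.00 for all genes in both.

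**Figure D4:**
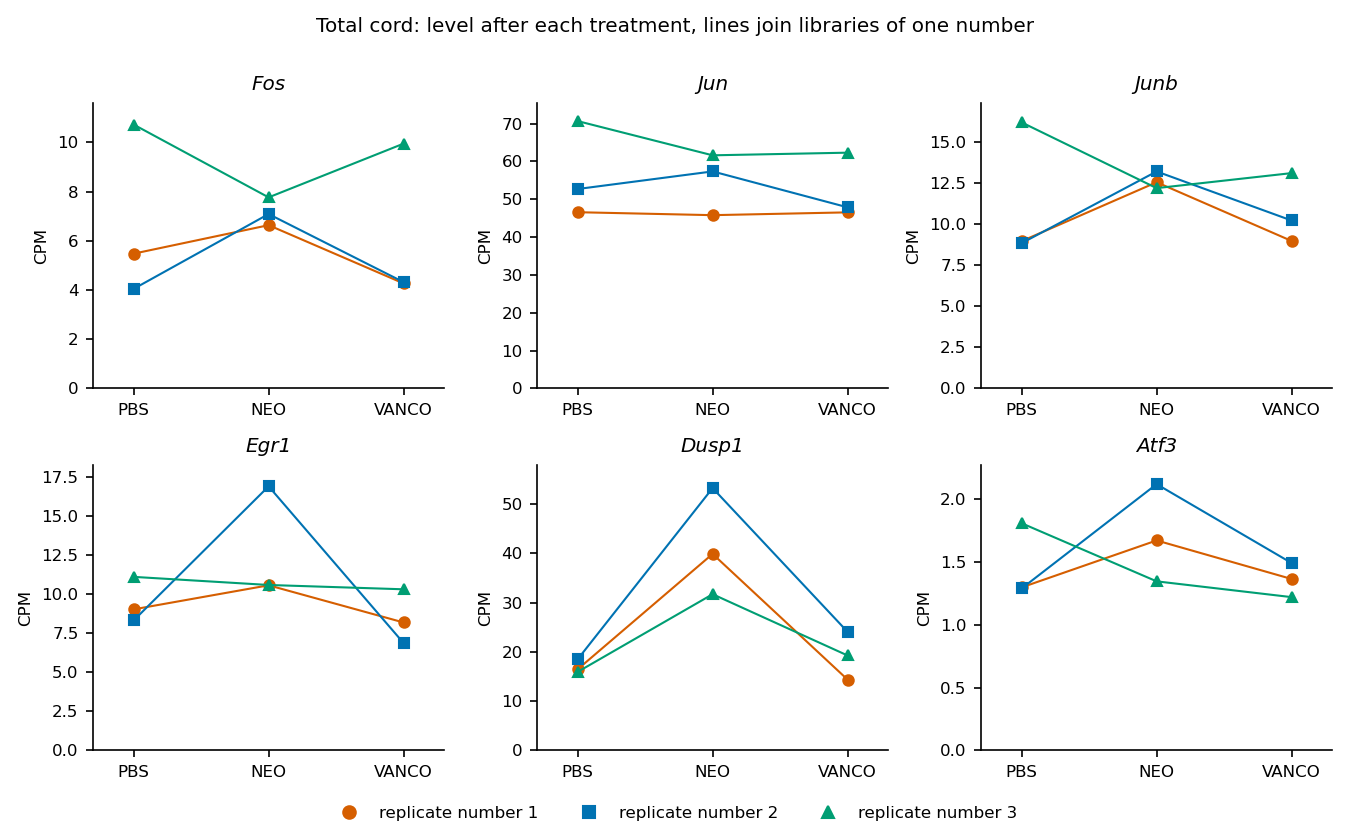
CPM of each gene in the 9 cord libraries after PBS, NEO and VANCO, with lines joining libraries of the same replicate number and the axis of each panel starting at 0. Dusp1 is highest after NEO in all 3 numbers, Egr1 has its highest value in NEO library 2, and the AP-1 genes show no common direction.

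In microglia no member passed the edgeR test for any treatment. The edgeR model called 0 of 6 for NEO against PBS, where 0.0398% of 12570 genes were called, and 0 of 6 for VANCO against PBS and for NEO against VANCO, where 0% were (108 and 269 genes at an unadjusted p under 0.05). DESeq2 without the block called 66, 5 and 16 genes in these comparisons and none of the members. Fos, for example, stood at 5372, 881, 1609 and 1398 CPM after PBS, at 5093, 410, 1591 and 766 CPM after NEO and at 4725, 735, 1684 and 1319 CPM after VANCO. The groups overlapped across nearly their whole range, and the spread of Fos over numbers was wider than its distance between treatments at any number.

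Against PBS all 6 members had negative fold changes in NEO microglia, with a median log2 fold change of -0.20, beside 0.00 over all genes. Without the block this direction rested on single libraries: leaving out PBS library 1 turned all 6 positive, from 0.15 for Junb to 2.41 for Atf3, and leaving out NEO library 2 or 5 turned Fos, Egr1, Dusp1 and Atf3 positive, as did leaving out NEO library 3 for Atf3. With the replicate block the values were -0.47 for Fos (SE 0.17), -0.50 for Jun (SE 0.15), -0.56 for Junb (SE 0.24), -0.37 for Egr1 (SE 0.16), -0.32 for Dusp1 (SE 0.14) and -0.34 for Atf3 (SE 0.16). The smallest edgeR adjusted p among them was 0.217, for Jun, where 0.748% of all genes were called. Unadjusted edgeR p-values of the members ran from 0.00724 (Jun) to 0.0586 (Atf3), and 1706 of 12570 genes were under 0.05. Comparing libraries of the same number, NEO was below PBS in 21 of the 24 pairs of a member and a number. These rest on 4 pairs of libraries and on genes that varied together, so the 24 are not independent. The share of such pairs over all genes was not counted. All 6 stayed negative under the block whichever library was left out. All 6 were lower for number 2, with ratios from 0.309 to 0.662, and NEO library 2 is also the library with 2.57% of counts from cord-enriched IDs, against 0.303% and 0.306% in the other 2 microglia libraries of that number. Its part in these ratios was not tested. A blocked DESeq2 fit called Jun alone of the 6 members (log2 fold change -0.49, adjusted p = 0.0359). That fit called 314 of 12570 genes.

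VANCO against PBS gave log2 fold changes from -0.11 to -0.25 in microglia, with 19 of 24 pairs lower. These pairs, too, come from 4 pairs of libraries and are not independent. Since both antibiotics were compared with the same PBS libraries, the shared direction of the 2 sets is not independent. Set directly against VANCO with the block, the NEO values lay between -0.13 and -0.37, with edgeR adjusted p-values of 0.746 or more, where 0.167% of all genes were called.

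**Figure D5:**
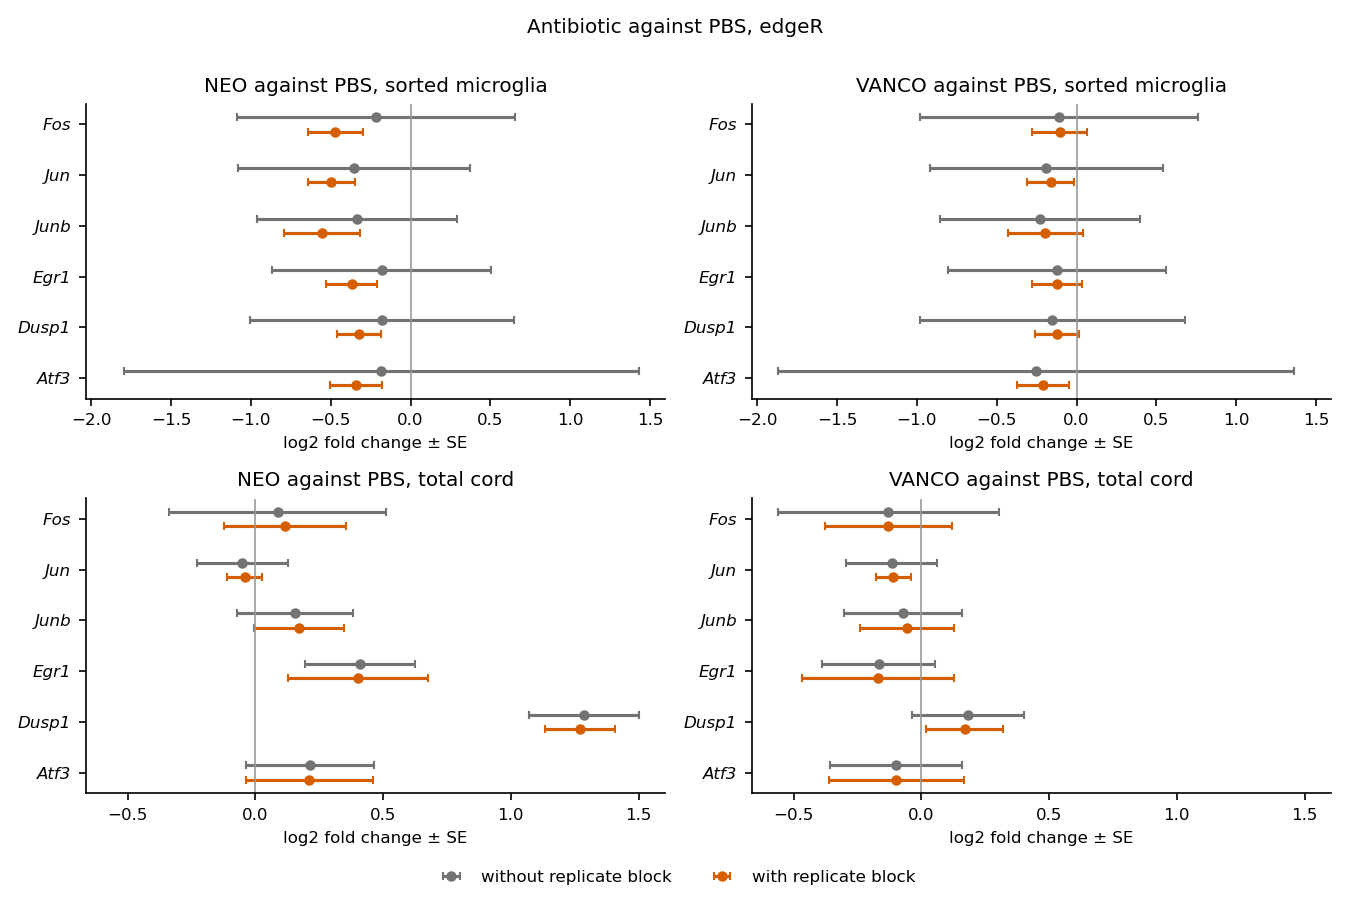
Log2 fold change with its standard error for NEO and VANCO against PBS, in microglia (top, 4 against 4 libraries) and cord (bottom, 3 against 3), from edgeR without (grey) and with (orange) the replicate number as a block. The 2 panels of a row share their axis. Dusp1 after NEO in cord, at 1.29 and 1.27, stands apart from the other members, and the bars in microglia shorten with the block.

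Whether NEO acted differently on Dusp1 in the 2 tissues was tested as an interaction over all 21 libraries. The change in microglia minus that in cord was -1.49 on the log2 scale (SE 1.03, adjusted p = 1.00 by edgeR), and this model called 0 of 6 members and 0% of 15546 genes, with 438 at an unadjusted p under 0.05. Because the numbers link libraries within a tissue and not across, a fit with a block for number within each tissue was added after the data had been seen. It gave -1.62 (SE 0.21, adjusted p = 0.00334 by edgeR), where 0.193% of all genes were called, and the other 5 members, at -0.49 to -0.81, did not pass. A block for number over both tissues gave -1.58 (SE 0.91, adjusted p = 0.970 by edgeR), where 0.0193% of all genes were called. Under the block within each tissue alone, leaving out each NEO or PBS library in turn kept the call, with values from -1.77 to -1.50 and edgeR adjusted p-values from 0.00383 to 0.0325. Dusp1 in NEO was higher than in PBS in 3 of 3 cord pairs and lower in 4 of 4 microglia pairs, with ratios of 0.596 to 0.977 in the latter. The share of all genes with these signs was not counted. The change in microglia alone was not called with the block (log2 fold change -0.32, SE 0.14, edgeR adjusted p = 0.350). The same interaction for VANCO called 0 of 6 members with no block (0% of all genes), with number as 1 block over both tissues (0.0579%) or with the block within each tissue (0.116%), and for Dusp1 it was -0.35 (SE 1.02, adjusted p = 1.00 by edgeR) without a block.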

How the data were processed

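RNA was sequenced from 12 sorted microglia and 9 total cord samples. The submitters' processing notes name featureCounts 1.5.0-p1, STAR 2.5.2a, bcl2fastq 2.20.0.422 and build rn6. Not given in the sources used here are the annotation release, strand setting and handling of multiply aligned reads, and for overlapping or near-identical genes the counts are therefore uncertain. The deposited files hold raw counts per Ensembl gene ID that the authors did not normalise, as far as the values show. Groups and numbers came from the sample titles. No 2 libraries of a group agreed within sampling noise (27 pairs, with chi-square over its degrees of freedom at 8.76 to 240), so none was left out.

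Tests were run in R 4.3.3 on the counts with edgeR 4.0.16 (filterByExpr by group, TMM factors, robust quasi-likelihood F test) and Benjamini-Hochberg adjustment over all genes tested, with a threshold of 0.05. There were 3 models, of microglia (12570 genes), of cord (14677) and of all libraries (15546), fitted on group means. The scripts were checked on simulated counts. All 6 members passed the filter on low counts in every model. Log2 CPM used a prior count of 2. The alternatives were DESeq2 1.42.0, limma 3.58.1 with voom, other scaling factors and filters, the replicate number as a block, fits of the compared groups alone, and leaving out libraries or all libraries of a number.

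Whether the numbers pair the libraries was checked before calls were compared, on deviations of log2 CPM from group means. For same-numbered libraries of different treatments r was 0.24 to 0.79 over 12 pairs of microglia libraries and 0.36 to 0.59 over 9 pairs of cord libraries, against -0.55 to 0.34 and -0.49 to 0.01 for other pairs. The pairing comes from the data, as no label states it, and blocked values are given where they change a call. Across tissues, same-numbered libraries had r from -0.19 to 0.19.

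All 6 members are named. For likeness the rule named the 2 genes with the highest r to each member, and from fixed lists up to 4 called genes with the largest changes. Those lists and the cell type markers are given by symbol, and with 0 IDs matched they were not analysed here. The names of the 6 IDs were given with the selection of the genes and could not be checked in the files. Members and lists were chosen with earlier results of these data known.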

Additional observations from a re-analysis of the deposited data

Results flagged for a closer look

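Dixon's test on CPM was applied to 18 groups of 4 microglia libraries (6 genes, 3 treatments). In 4 of them a library lay apart from the rest, and it was number 1 each time. Chance gives about 1 in 20 for independent groups. These 18 draw on the same libraries and on genes that varied together, so 4 of 18 cannot be set against that rate. The test was not run on log2 CPM, on which a high library stands out less. Fos stood at 5372 CPM in PBS library 1, against 881 to 1609 CPM in the other 3. Atf3 stood at 104 CPM in PBS library 1 (3.40 to 6.08 CPM in the others), at 92.6 CPM in NEO library 1 (2.18 to 4.22 CPM) and at 85.0 CPM in VANCO library 1 (2.93 to 5.46 CPM). For the other 14 groups number 1 was also the highest library, without passing that test.

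For Dusp1 the change with NEO in microglia minus that in cord was -1.62 on the log2 scale (SE 0.21, edgeR adjusted p = 0.00334) in a model with the number as a block within each tissue, which was added after the data had been seen. The planned models did not call it: it was -1.49 without a block (SE 1.03, edgeR adjusted p = 1.00) and -1.58 with 1 block over both tissues (SE 0.91, edgeR adjusted p = 0.970).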

How the results depend on the processing

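Of 2014 values of single members under the alternatives, 1923 kept their side of the threshold, 46 lost the call, 45 gained it and 0 called values changed sign. Of the 1923, 144 changed sign without being called before or after (lowest edgeR adjusted p = 0.615), 117 of them on leaving out 1 library, so no direction is to be read from the uncalled fold changes. In the comparison of the tissues, 5 or 6 members were called under every alternative, Atf3 being the exception. DESeq2 gave Atf3 no adjusted p there. RLE factors moved the median of all genes between the tissues in PBS from 0.21 to -0.29 (log2), and all 6 members stayed higher in microglia, although the Atf3 call was lost after NEO and VANCO (edgeR adjusted p = 0.0664 and 0.0571). Upper quartile factors and a filter of 1 CPM lost it after NEO (0.0557 and 0.0516), and testing without the low-count filter lost it in all 3 (0.0556 to 0.0726). With the replicate block, all 6 stayed called.

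The number of members called rose from 0 to 1 in these cases. For NEO against PBS in cord it was 1 (Dusp1) with the replicate block, with DESeq2, with the block and another scaling or tool, and with the block without all libraries of number 1, 2 or 3. For NEO against VANCO in cord it was 1 with the same settings, apart from the block without all of number 2 (edgeR adjusted p = 0.0969). For the NEO interaction it was 1 with the block within each tissue. For NEO against PBS in microglia it was 1 with blocked DESeq2, which called 314 genes. Leaving out each library under the block gave 1 throughout for NEO against PBS in cord and for the interaction, and 0 to 1 for NEO against VANCO in cord. Without the block, leaving out a library gave 0 in every treatment comparison. The replicate block changed no other call of a member.

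For number in cord, leaving out each library called 1 to 4 members, and leaving out all libraries of number 3 called 1, with Jun at an edgeR adjusted p of 0.0991. DESeq2 lost Dusp1 (adjusted p = 0.116), and testing without the low-count filter gained Junb (edgeR adjusted p = 0.000387).

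Counts over all genes depended on the model more than those of members: with the block, edgeR called 94, 0 and 21 genes in microglia (NEO against PBS, VANCO against PBS, NEO against VANCO), beside 5, 0 and 0 without it, and 100, 1 and 64 in cord, beside 0 each. Groups hold 3 or 4 libraries, and Atf3 in cord is limited by 20 to 38 counts per library.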
